A study of Danio rerio with 16 samples.

Results

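The receptors for the inhibitory transmitters GABA and glycine were examined across 4 groups of sorted zebrafish brain cells. A gene was a member when its symbol in the deposited count table began as the name of a GABA-A receptor subunit (alpha, beta, gamma, delta, pi, rho or zeta), a GABA-B receptor subunit or a glycine receptor subunit. The endings _1 and _2, which mark further rows of a symbol, were removed and the rows of a symbol were summed. This gave 29 members of 30565 symbols, held in 39 rows, and 27 of the 29 had counts. They fall into 8 classes: 5 GABA-A alpha, 5 beta, 2 gamma, 3 delta, pi and zeta, and 4 rho subunits, 3 GABA-B subunits, 5 glycine alpha and 2 glycine beta subunits. The rule used no measured value.

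GABA-A and glycine receptors are chloride channels built from several subunits, and their opening usually inhibits a mature neuron. The mix of subunits sets the place and the drug response of a GABA-A receptor: in mammals, receptors with a gamma subunit gather mainly at synapses and those with the delta subunit lie mainly outside them and carry a tonic current. GABA-B receptors are slower G protein-coupled receptors that work as pairs of a type 1 and a type 2 subunit.

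Cells came from whole brains of transgenic zebrafish aged 1 month, with 8 brains pooled for each replicate. Gal4FF is a form of the yeast activator Gal4 that switches on genes behind UAS sites. In the line Tg(76A:Gal4FF;UAS:GCaMP6s) the 76A driver labelled lateral hypothalamic cells with GCaMP6s, a calcium indicator. In the line Tg(116A:Gal4FF;UAS:GFP) the 116A driver labelled caudal hypothalamic cells with GFP. Papain-dissociated cells were sorted by fluorescence into GCaMP6s-positive (LH), GCaMP6s-negative (non-LH), GFP-positive (cH) and GFP-negative (non-cH) cells, 4 libraries each. All groups carried Gal4FF and a UAS reporter, no untreated or wild-type group was used here, and the labels give a region, not a cell type, for the positive cells. The negative cells are the rest of the whole brain, so a contrast with them holds region and cell type together. Driver, reporter and sort all differ between LH and cH and cannot be told apart from the region.

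Libraries held 26.8 M to 49.4 M counts. The cH libraries stood apart: they detected 13478 to 16887 symbols, against 18843 to 21015 in the other 12 libraries. Replicates 1 and 2 of cH detected 13478 and 13663, and replicates 3 and 4 detected 16793 and 16887. In CPM, the counts of a gene over the scaled size of its library, the summed level of 19 measured pan-neuronal markers was 505 to 2254 in cH, against 11077 to 13537 in non-cH, 10068 to 10806 in LH and 11392 to 12504 in non-LH. The marker syt1b was at 0 in all groups. The sum of 17 radial glia markers ran the other way, at 58536 to 111120 CPM in cH and 3706 to 11485 CPM in the other libraries. In these bulk samples, fewer cells of a type and less RNA per cell cannot be told apart.

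**Figure D1:**
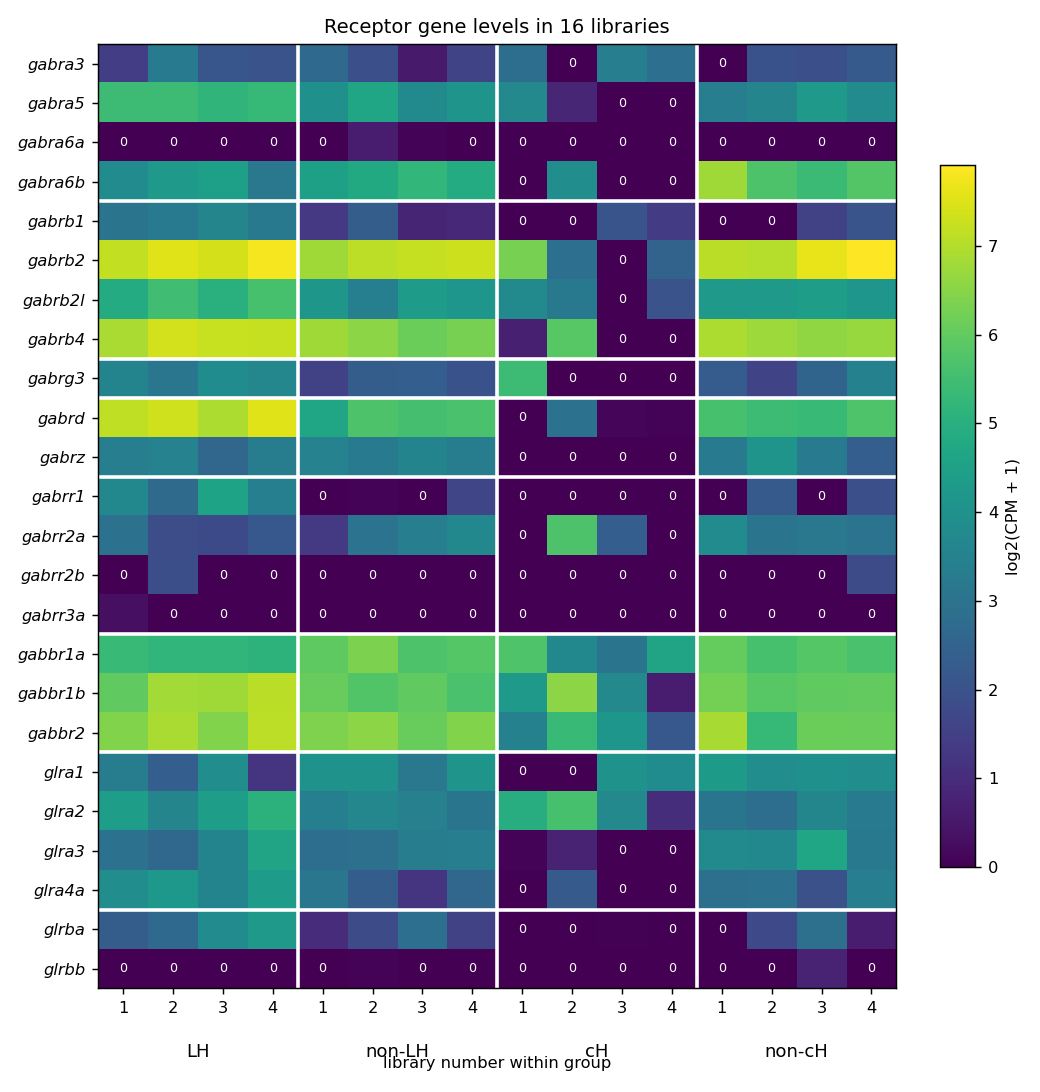
Level of 24 members in each of the 16 libraries, as log2(CPM + 1), with members in rows by subunit class and libraries in columns by group. Most of them had counts in LH, non-LH and non-cH, whereas 14 to 17 of all 29 members were at 0 in each cH library. Of all 30565 symbols, 13478 to 16887 were detected in the cH libraries.

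The first contrast, LH against non-LH, asks what sets the sorted lateral hypothalamic cells apart from other brain cells. The summed level of the members was 1043, 1309, 1201 and 1467 CPM in LH replicates 1 to 4 and 781, 858, 783 and 847 CPM in non-LH, so that the groups did not overlap. Most of the change lay in GABA-A subunits: the delta subunit gene gabrd, the beta subunit genes gabrb1, gabrb2l and gabrb4, the alpha subunit gene gabra5 and the gamma subunit gene gabrg3 were among those higher in LH. The GABA-B subunits moved apart, with gabbr1b higher and gabbr1a lower, and the glycine receptor genes glra2 and glra4a were higher. In all, 23 of 29 members passed the filter on low counts, and 12 passed the edgeR quasi-likelihood test at a Benjamini-Hochberg adjusted p of 0.05, 11 higher and 1 lower. Of all symbols tested 13.4% were called, 7.14% higher and 6.24% lower. The median log2 fold change of the tested members was 0.79, against -0.01 over all symbols. The 2 groups did not overlap for 9 members that were higher and 2 that were lower in LH, against 9.91% and 12.3% of all symbols tested. These calls depend on the libraries in the fit: with all 16 libraries in 1 fit, where the widely spread cH libraries enter the shared estimate of the spread, 0 members passed, 0 had an unadjusted p under 0.05, and 1.67% of all symbols were called. DESeq2 on the 8 libraries called 13 members, where 19.3% of all symbols were called. A member kept by the filter only through 1 group had to differ, so these counts are descriptions.

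Markers of other cell types moved with the LH sort as well, against the shares of 7.14% higher and 6.24% lower over all symbols. Of the erythrocyte markers 8 of 8 tested were lower in LH, with a summed level of 87.3 to 169 CPM for LH and 2295 to 3081 CPM for non-LH, and alas2 was at 0 in LH. Of the radial glia markers 7 of 16 were lower and 1 was higher, with sums of 3706 to 6244 CPM for LH and 4163 to 7278 CPM for non-LH, which overlapped. Those lower include mki67 and pcna, which are genes of dividing cells, with id1, her4.2, vim, fabp7a and nes, and the higher was slc1a3b. Of the microglia markers 2 of 11 were higher and 0 were lower, with sums of 2255 to 5547 CPM for LH and 1536 to 2230 CPM for non-LH, where coro1a was at 0. The oligodendrocyte markers, 1 of 11 lower and 0 higher, summed to 10196, 12845, 2892 and 2014 CPM in LH replicates 1 to 4 and to 10037 to 13497 CPM for non-LH. LH replicates 3 and 4 thus lay below every non-LH library, and replicates 1 and 2 within the non-LH range. Of the pan-neuronal markers 4 of 18 were higher and 5 were lower. The part of these cell types in the receptor values of LH was not tested.

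The same contrast was made for cH against non-cH. Most receptor genes had low and uneven counts in cH. The summed level of the members was 304, 446, 111 and 129.5 CPM in cH replicates 1 to 4 and 998, 812, 930 and 1008 CPM in non-cH. A single member of 21 tested passed the test, the zeta subunit gene gabrz, which was lower in cH. It had 0 counts in cH, so the filter kept it through non-cH alone and it could be called in 1 direction only. Of all symbols tested 11.9% were called, 5.05% higher and 6.85% lower. The groups did not overlap for 9 members that were lower in cH and 0 that were higher, against 18.9% and 8.96% of all symbols. The median log2 fold change was -1.60, against -0.20 over all symbols. The fit of all 16 libraries called 7 members lower, where 13.4% of all symbols were called lower, and DESeq2 called 6, where 11.1% were. cH replicates 1 and 2 detected the fewest symbols but had the highest pan-neuronal sums in cH. These were 1098 and 2254 CPM, against 505 and 954 CPM in replicates 3 and 4. With cH replicates 1 and 2 set aside, 11 members were called lower, where 11.2% of all symbols were. Among them were gabra5, gabra6b, gabrb2, gabrb4, gabrd, gabrg3, gabrz, glra3 and glra4a. Of these, gabra5, gabra6b, gabrb4, gabrg3, gabrz, glra3 and glra4a were at 0 in both remaining cH libraries. The filter kept these through non-cH alone, so they could be called in 1 direction only and the count is a description. Among the pan-neuronal markers 12 of 18 tested were lower and 0 were higher in cH, with a median log2 fold change of -3.29, and 10 of 16 radial glia markers were higher and 1 was lower. The lower was mki67, a gene of dividing cells. Erythrocyte markers, 7 of 8 lower and 1 higher, summed to 857 to 1046 CPM for cH and 1476 to 3461 CPM for non-cH, with hbaa2, hbba2, alas2 and epb41b at 0 in cH. The marker that was higher, cahz, made up nearly all of the cH sum, at 854 to 1046 CPM. The globin gene ba1 was at 0 to 2.99 CPM in cH and at 536 to 1489 CPM in non-cH. Microglia markers, 2 of 10 lower and 0 higher, summed to 67.8 to 811 CPM for cH and 1603 to 2568 CPM for non-cH, with coro1a at 0 in cH. Ependymal markers, 2 of 7 higher and 0 lower, summed to 176 to 924 CPM for cH and 41.4 to 83.3 CPM for non-cH. Endothelial markers, 3 of 11 lower and 0 higher, summed to 8.16 to 27.3 CPM and 62.6 to 257 CPM. Oligodendrocyte markers, 1 of 10 lower and 0 higher, summed to 576 to 7431 CPM and 8032 to 14508 CPM. At 0 were dnah9 in non-cH and kdrl, cldn5b, flt1, etv2, egfl7 and gpr17 in cH. The part of these cell types in the receptor values was not tested. As a share of the pan-neuronal sum, the members' sum was 20.8% ± 5.84 in cH and for non-cH 7.81% ± 0.591 (mean ± SD over 4 libraries), and 12.0% ± 1.57 for LH and 6.87% ± 0.507 for non-LH.

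**Figure D2:**
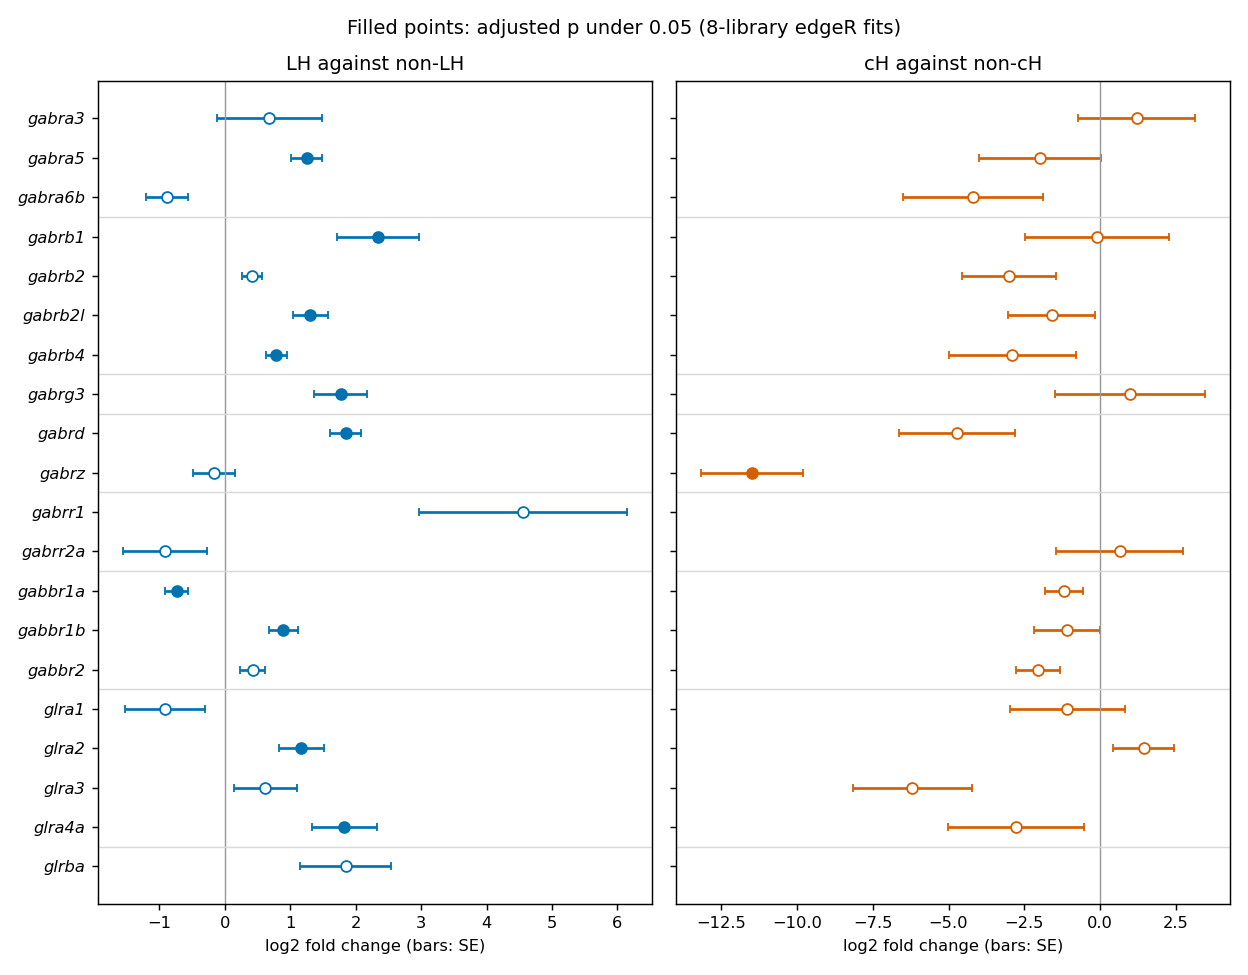
Log2 fold change of tested members with its standard error in LH against non-LH and in cH against non-cH, by subunit class, with members that passed the test marked. Values in LH lie mostly above 0 with short error bars, and values in cH lie mostly below 0 with standard errors of up to 2.48, that of gabrg3.

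LH and cH cells were compared directly, and 4 of 23 tested members passed, all higher in LH: gabbr2, the rho subunit gene gabrr1, gabrz and the glycine beta subunit gene glrba. Of all symbols 13.6% were called and 7.55% were higher. In cH, gabrr1 and gabrz had 0 counts and glrba had 1, so the filter kept them through LH alone and they could be called in 1 direction only. With cH replicates 1 and 2 set aside, 14 members were higher in LH, where 14.7% of all symbols were; the same holds for those at 0 in the remaining cH libraries. The groups did not overlap for 15 members that were higher in LH and 0 that were lower, against 20.8% and 10.3% of all symbols. The negative cells of both lines were then compared, as a measure of how far members differ between the lines and sorts apart from the labelled cells. Here 0 of 22 tested members passed in edgeR, 2 had an unadjusted p under 0.05 and DESeq2 called 1, gabra6b. Of all symbols 0.0689% were called by edgeR and 1.47% by DESeq2. The share of all symbols without overlap was 3.66% higher and 2.81% lower in non-LH, and 0 members were higher and 1, gabra6b, was lower without overlap.

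**Figure D3:**
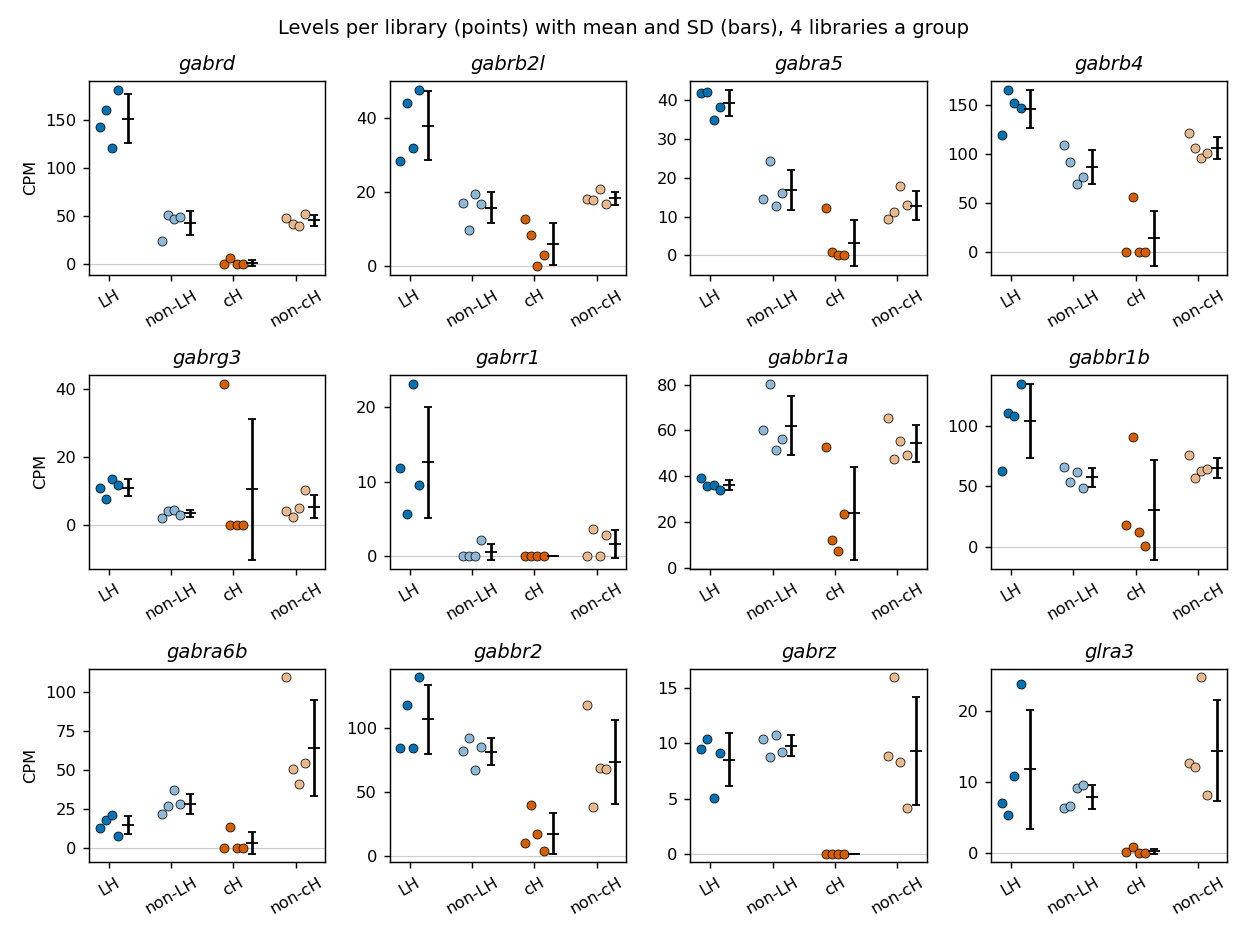
CPM in each library of selected members, 1 panel per member with its own linear axis from 0, grouped as LH, non-LH, cH and non-cH, with the mean and SD of each group as bars. For gabrd all 4 LH points, from 121 to 181 CPM, lie above every other library, whereas most cH points lie at or near 0.

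Of the GABA-A subunits, gabrd gave the smallest adjusted p of all members in LH against non-LH. The gene encodes the delta subunit. It was at 143, 159.9, 121 and 181 CPM in LH replicates 1 to 4 and at 24.6, 51.2, 47.2 and 49.3 CPM in non-LH. In non-cH it was at 48.2, 41.8, 40.3 and 52.3 CPM, and in cH at 0, 6.73, 0.0709 and 0.066 CPM. Every LH library was above every library of the other groups, both negative groups lay close together, and every cH library was below every non-cH library. The log2 fold change in LH was 1.85 ± 0.24 SE (adjusted p = 0.000683), and the call held when any 1 of the 8 libraries was left out but not in the fit of all 16 libraries (adjusted p = 0.773). In cH the log2 fold change was -4.72 ± 1.91 SE and did not pass (adjusted p = 0.189). The fit of all 16 libraries, which ended the LH call, made this one (adjusted p = 0.0174). Outside replicate 2 the cH values of gabrd were at or near 0. The filter thus kept it through the other groups, which left little room for a rise in cH. The difference between the 2 contrasts was 6.55 ± 1.71 SE on the log2 scale (adjusted p = 0.0199).

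The zeta subunit gene gabrz was at 9.48, 10.4, 5.08 and 9.14 CPM in LH, at 10.4, 8.76, 10.8 and 9.25 CPM in non-LH and at 8.83, 16.0, 8.31 and 4.1 CPM in non-cH. It had 0 counts in all 4 cH libraries. LH and non-LH overlapped (log2 fold change -0.16 ± 0.32 SE, adjusted p = 0.829), and cH stood below all of them. Against a floor of 3 counts over the cH group, gabrz was at least 425-fold lower in cH than in non-cH (1642 counts, adjusted p = 0.013) and at least 384-fold lower than in LH (1275 counts, adjusted p = 0.00913). In both comparisons the filter kept gabrz through the other group alone, so both calls could go in 1 direction only. The call against non-cH ended without any 1 of non-cH replicates 2, 3 and 4 (highest adjusted p 0.0525), and that against LH held without any 1 library. The pi subunit gene gabrp, held in 3 rows, was at 0 in all 16 libraries.

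The beta subunits form part of the GABA binding site of the receptor, and gabrb1, gabrb2l and gabrb4 rose in LH. gabrb1 was at 7.32, 8.51, 11.2 and 8.14 CPM in LH and at 1.46, 4.04, 0.756 and 0.848 CPM in non-LH. These groups did not overlap (log2 fold change 2.34 ± 0.62 SE, adjusted p = 0.0335), although the call ended without any 1 of 7 of the 8 libraries, with adjusted p up to 0.0914. gabrb4 was at 119, 165, 152 and 147 CPM in LH and at 109, 91.9, 69.6 and 76.3 CPM in non-LH, with no overlap (0.79 ± 0.16 SE, adjusted p = 0.0105).

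The gene gabrb2l, named as a beta2-like subunit, was at 28.4, 44.1, 31.8 and 47.6 CPM in LH and at 17.0, 9.71, 19.4 and 16.7 CPM in non-LH, again with no overlap (1.31 ± 0.27 SE, adjusted p = 0.0109). The beta2 subunit gene gabrb2 was at 144, 184, 167 and 220.2 CPM in LH and at 108, 138, 147 and 157 CPM in non-LH; the groups overlapped and the difference did not pass (0.42 log2 units, adjusted p = 0.129). The calls of gabrb4 and gabrb2l held without any 1 of the 8 libraries.

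In cH the beta subunit genes differed widely between replicates. gabrb2 was at 76.3, 6.41, 0 and 4.75 CPM in cH replicates 1 to 4 and at 136, 130.1, 198 and 239 CPM in non-cH. gabrb4 was at 0.627, 56.3, 0 and 0 CPM in cH and at 121, 106, 95.9 and 101 CPM in non-cH. Both genes were lower in every cH library than in any non-cH library, and so was gabrb2l, at 0 to 12.7 CPM in cH and 16.7 to 20.7 CPM in non-cH. None of these 3 genes passed the test (adjusted p = 0.332 for gabrb2, 0.535 for gabrb4 and 0.640 for gabrb2l). gabrb1 was at 0, 0, 3.15 and 1.60 CPM in cH and at 0, 0, 1.93 and 3.18 CPM in non-cH, with overlap (adjusted p = 0.992).

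**Figure D4:**
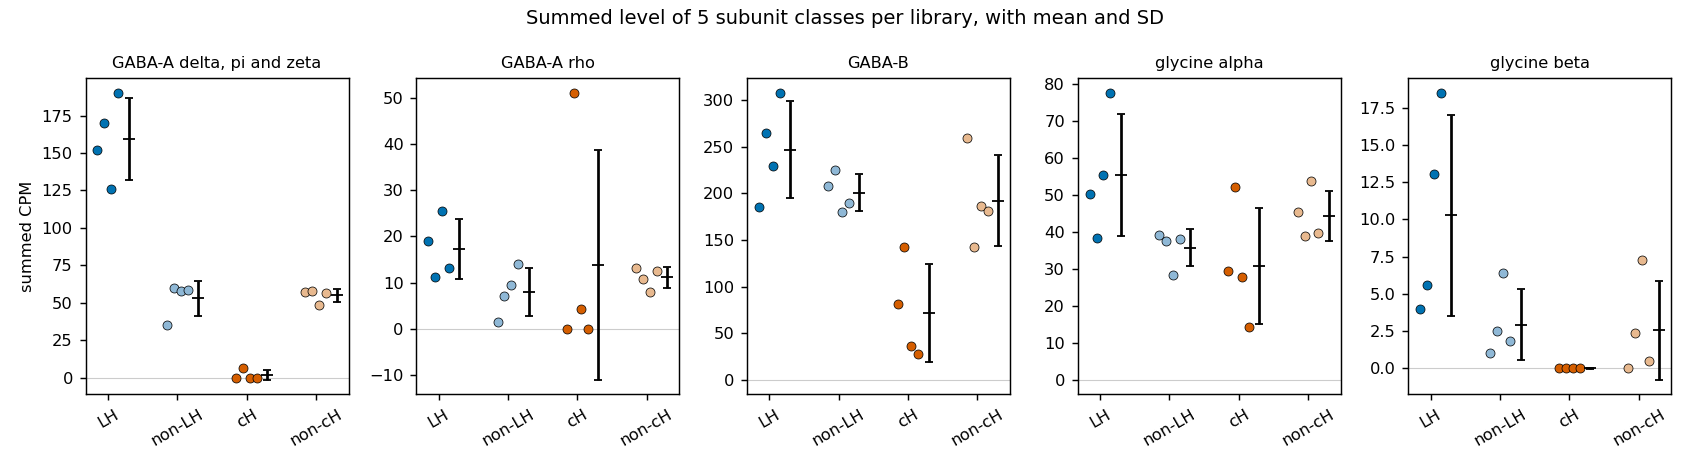
Summed CPM of 5 subunit classes in each library, with the mean and SD of each group of 4 libraries. The delta, pi and zeta class was at 160 ± 27.4 CPM for LH and 52.9 ± 11.9 for non-LH, and at 1.72 ± 3.34 for cH and 54.9 ± 4.27 for non-cH.

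Of the alpha subunits, which also line the GABA binding site, gabra5 rose in LH. In mammals the alpha5 subunit is largely extrasynaptic. gabra5 was at 41.9, 42.0, 34.9 and 38.3 CPM in LH and at 14.6, 24.3, 12.8 and 16.0 CPM in non-LH. Every LH library was above every non-LH library (log2 fold change 1.25 ± 0.23 SE, adjusted p = 0.006), and the call held without any 1 library. With the rows of gabra5 tested as deposited, the row with more counts did not pass (adjusted p = 0.160).

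The gene gabra6b encodes an alpha6 subunit, which in mammals is mainly a subunit of cerebellar granule cells. It was at 12.9, 18.1, 21.2 and 8.07 CPM in LH, at 21.8, 27.1, 37.1 and 28.3 CPM in non-LH and at 109, 50.9, 41.3 and 54.8 CPM in non-cH. LH lay below non-LH without overlap, but the test was not passed (-0.88 ± 0.32 SE, adjusted p = 0.107; exact two-sided permutation p of the CPM 0.0286, the smallest that 4 against 4 libraries can give). The sum of 19 cerebellar granule and Purkinje cell markers was 946 to 1553 CPM in LH and 3972 to 4969 CPM in non-LH, with 11 of 18 tested lower and 2 higher in LH, against 6.24% and 7.14% of all symbols, and its part in the gabra6b values was not tested. Of these markers atoh1a was at 0 in every group. The sums were 944 to 2301 CPM in cH, where aldoca was also at 0, and 4303 to 5970 CPM in non-cH, with 7 of 18 tested lower and 2 higher in cH, against 6.85% and 5.05% of all symbols. Between the negative cells gabra6b had a log2 fold change of -1.18 ± 0.32 SE in non-LH against non-cH (adjusted p = 0.319).

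In cH, gabra6b was at 13.8 CPM in replicate 2 and at 0 in the others. gabra5 was at 12.2, 0.783, 0 and 0 CPM in cH and at 9.36 to 17.9 CPM in non-cH (adjusted p = 0.696). gabra3 was at 6.18, 0, 9.42 and 6.42 CPM in cH and 0, 2.98, 2.83 and 3.76 CPM in non-cH (1.21 ± 1.92 SE, adjusted p = 0.829). The second alpha6 gene, gabra6a, had 26 counts over 2 non-LH libraries and 0 in the other groups, and was not tested.

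**Figure D5:**
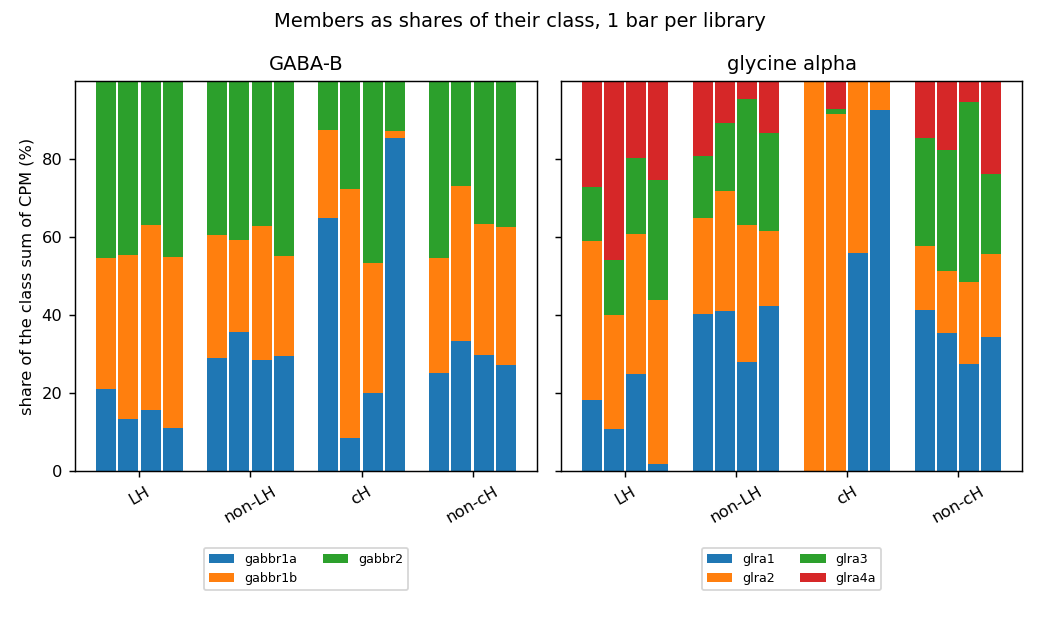
Share of each member in the summed CPM of its class, as a percent, with 1 stacked bar per library and 1 panel each for the GABA-B and glycine alpha classes. The share of gabbr1a ran from 11.0% to 21.1% in LH and from 28.5% to 35.7% in non-LH, and from 8.4% to 85.3% between cH libraries.

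The gamma subunit gene gabrg3 was at 10.8, 7.52, 13.5 and 11.7 CPM in LH and at 1.90, 4.06, 4.17 and 2.95 CPM in non-LH, with no overlap (log2 fold change 1.77 ± 0.40 SE, adjusted p = 0.0166, and 0.0511 without non-LH replicate 4). In cH it was at 41.4 CPM in replicate 1 and at 0 in the others.

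For the delta, pi and zeta class the summed level was 0.0798% ± 0.146 of the pan-neuronal sum in cH and 0.460% ± 0.0562 for non-cH (mean ± SD over 4 libraries). Every cH library lay below every non-cH library on this scale. The glycine alpha class was higher on it, at 3.00% ± 1.75 in cH and 0.372% ± 0.0668 in non-cH. The glycine beta class had a lower mean, at 0.00175% ± 0.00351 in cH and 0.0216% ± 0.0280 in non-cH, but the groups overlapped. cH replicate 3 was at 0.00702%, above non-cH replicates 1 and 4 at 0 and 0.00388%. The part of neuronal content in these shares was not tested.

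Several members lie next to each other in the RefSeq annotation of GRCz12tu, which was used for gene order and names only and holds 28 of the 29 symbols. gabra5 and gabrg3 are direct neighbours, with 0 protein-coding genes between, and both rose in LH. gabra3 and gabrb4 are neighbours as well, and gabrb4 rose while gabra3 was at 1.69 to 8.86 CPM in LH and 0.497 to 5.48 CPM in non-LH (adjusted p = 0.696). So are gabra6a, which had 0 counts in LH, and gabrb2, at 144 to 220 CPM in LH.

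The rho subunits form channels that, in the mammalian retina, are insensitive to bicuculline. gabrr1 was at 11.9, 5.68, 23.2 and 9.61 CPM in LH, at 0, 0.0486, 0 and 2.16 CPM in non-LH, and at 0, 3.68, 0 and 2.84 CPM in non-cH. It had 0 counts in all cH libraries. Every LH library was above every library of the other groups. The log2 fold change against non-LH was 4.56 ± 1.59 SE and did not pass (adjusted p = 0.0959); against cH, gabrr1 was at least 548-fold higher (1818 counts against 0, adjusted p = 0.00931). The 12 photoreceptor and pineal markers summed to 10.6 to 19.2 CPM in LH and 7.91 to 43.0 CPM in non-LH, and rho, opn1sw1 and rom1a were at 0 in non-LH and saga, sagb, crx, otx5, rom1a and rcvrna in LH; their part in the gabrr1 values was not tested.

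The other rho genes were low or uneven. gabrr2a was at 2.41 to 6.87 CPM in LH and at 1.53 to 11.9 CPM in non-LH (adjusted p = 0.448), and in cH it was at 51.1 CPM in replicate 2, 4.18 CPM in replicate 3 and 0 in the others. gabrr1 took 69.4% ± 16.8 of the rho sum in LH, against 4.01% ± 7.57 for non-LH (mean ± SD over 4 libraries), and gabrr2a took 24.1% ± 11.1 and 96.0% ± 7.57. gabrr2b, the direct neighbour of gabrr1, had counts in LH replicate 2 (103 counts) and non-cH replicate 4 (98 counts) only, and gabrr3a in LH replicate 1 only (9 counts); neither was tested.

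The GABA-B receptor has its binding site on a type 1 subunit and couples to G proteins through the type 2 subunit. The paired type 1 genes moved apart in LH. gabbr1a was at 39.3, 35.7, 36.2 and 34.0 CPM in LH and at 60.3, 80.4, 51.3 and 56.2 CPM in non-LH, lower in every LH library (log2 fold change -0.74 ± 0.17 SE, adjusted p = 0.0192). gabbr1b was at 62.4, 111, 108 and 135 CPM in LH and at 65.6, 53.2, 61.7 and 48.8 CPM in non-LH. LH replicate 1 lay within the non-LH range and the other 3 above it (0.90 ± 0.22 SE, adjusted p = 0.0252). The fall of gabbr1a held without any 1 of the 8 libraries, and the rise of gabbr1b ended without any 1 of 6 of them, with adjusted p up to 0.0828. Shares of a class are of CPM, not corrected for gene length, and are compared between groups only. As a share of the GABA-B sum, gabbr1a was 15.4% ± 4.31 in LH and 30.7% ± 3.36 in non-LH, and gabbr1b was 41.6% ± 5.81 and 28.8% ± 4.98 (mean ± SD over 4 libraries); for gabbr1a the shares did not overlap, with 11.0% to 21.1% in LH and 28.5% to 35.7% in non-LH.

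The type 2 gene gabbr2 was at 84.1, 118, 84.4 and 139 CPM in LH and at 81.8, 91.6, 66.9 and 84.9 CPM in non-LH, with overlap (log2 fold change 0.43 ± 0.19 SE, adjusted p = 0.191). It was at 10.1, 39.5, 17.0 and 3.52 CPM in cH and at 117, 38.1, 68.7 and 67.9 CPM in non-cH, where cH replicate 2 was above the lowest non-cH library (-2.05 ± 0.74 SE, adjusted p = 0.133). Against cH, gabbr2 was higher in LH in every library (2.59 ± 0.69 SE, adjusted p = 0.0422), a call that ended without any 1 of 6 of the 8 libraries. In cH, gabbr1a was at 52.6, 12.0, 7.30 and 23.6 CPM and gabbr1b at 18.3, 91.0, 12.2 and 0.55 CPM, both overlapping non-cH. All 3 GABA-B genes had counts in every cH library. The GABA-B sum was 5.95% ± 2.09 of the pan-neuronal sum in cH, against 1.61% ± 0.441 for non-cH (mean ± SD over 4 libraries).

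Of the glycine receptor alpha subunits, which bind glycine, glra2 and glra4a rose in LH. glra4a was at 13.7, 17.6, 11.0 and 19.8 CPM in LH and at 7.52, 4.01, 1.32 and 5.09 CPM in non-LH, with no overlap (log2 fold change 1.83 ± 0.49 SE, adjusted p = 0.0358). glra2, in mammals a form of the developing brain, was at 20.5, 11.2, 19.9 and 32.8 CPM in LH and at 9.69, 11.6, 10.0 and 7.37 CPM in non-LH. LH replicate 2 lay within the non-LH range and the other 3 above it (1.17 ± 0.34 SE, adjusted p = 0.0495). Both calls ended when single libraries were left out, with adjusted p up to 0.0999 for glra4a and 0.135 for glra2. The gene glra1, in mammals that of the adult spinal form, was at 9.15, 4.12, 13.8 and 1.34 CPM in LH and at 15.8, 15.5, 7.94 and 16.1 CPM in non-LH. These groups overlapped (adjusted p = 0.416), and its share of the glycine alpha sum was 13.9% ± 9.95 for LH and 37.9% ± 6.67 for non-LH (mean ± SD over 4 libraries).

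In cH the glycine alpha genes also differed between replicates. glra2 was at 29.3, 47.6, 12.3 and 1.06 CPM in cH and at 7.42, 6.21, 11.4 and 8.41 CPM in non-cH. Replicates 1, 2 and 3 were above every non-cH library and replicate 4 below them all (log2 fold change 1.44 ± 1.01 SE, adjusted p = 0.513). glra1 was at 0, 0, 15.6 and 13.2 CPM in cH and at 13.7 to 18.7 CPM in non-cH. glra3 was at 0.0627, 0.712, 0 and 0 CPM in cH and at 12.6, 12.0, 24.7 and 8.15 CPM in non-cH, with no overlap (-6.19 ± 1.96 SE, adjusted p = 0.0874, and 0.00468 in the fit of all 16 libraries). With cH at or near 0, the filter kept glra3 through the other groups, which left little room for a rise in cH. In LH and non-LH glra3 overlapped, at 5.33 to 23.8 CPM and 6.24 to 9.50 CPM (adjusted p = 0.504). glra4a had counts in cH replicate 2 only (3.74 CPM), and glra4b, held in 2 rows, was at 0 in all 16 libraries.

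The glycine receptor beta subunit binds gephyrin, the scaffold protein of inhibitory synapses. Its gene glrba was at 4.00, 5.57, 13.0 and 18.5 CPM in LH, at 1.01, 2.48, 6.39 and 1.88 CPM in non-LH and at 0, 2.37, 6.58 and 0.526 CPM in non-cH. LH and non-LH overlapped (log2 fold change 1.85 ± 0.70 SE, adjusted p = 0.122). In cH it had 1 count in all, in replicate 3. The ratio of the pooled CPM of LH to that of cH was 1403 (exact 95% interval 251 to 55463, counting error only; adjusted p = 0.00818), from 1553 counts against 1. That of non-cH to cH was 327 (58.4 to 12957), from 421 counts against 1, and glrba was below the filter on low counts in that comparison. The second gene, glrbb, had 2 counts in non-LH replicate 2 and 32 in non-cH replicate 3, and was not tested.

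Whether a member's change in LH differed from its change in cH was tested as a difference of the contrasts over all 16 libraries. In this test the widely spread cH libraries enter the shared estimate of the spread, as in the fit that ended the LH calls. Of 23 members tested 7 passed, and all 7 were more positive in LH against non-LH than in cH against non-cH, among them gabrd, gabrz, gabrr1, gabbr2, glra3 and glrba. Of all symbols 12.1% were called, 7.54% in this direction. Among the pan-neuronal markers 13 of 18 tested passed in this direction and 0 in the other. Their median difference was 3.13 on the log2 scale, against 2.88 for the tested members. The part of neuronal content in the members' differences was not tested. For glra3 the difference was 6.79 ± 1.70 SE on the log2 scale (adjusted p = 0.0158) and for gabbr2 it was 2.45 ± 0.75 SE (adjusted p = 0.0469). gabrz, gabrr1 and glrba were at 0 or 1 count in cH, so their change in cH could only be negative. This left little room for a difference in the other direction. Their fitted size depends on the prior count, and their adjusted p were 5.02e-05, 0.0423 and 0.0117. The change of gabrz in LH was -0.16 and did not pass, so its difference lies in its 0 counts in cH. In cH replicates 1 to 4, glra3 had 2, 20, 0 and 0 counts and gabrd had 0, 189, 2 and 3. The filter kept both through the other groups, so little room was left for the other direction here too. The calls of gabrd, gabrz, glra3 and glrba held without any 1 of the 16 libraries, and those of gabrr1 and gabbr2 ended without several of them. With cH replicates 1 and 2 set aside 16 members passed in this direction, where 14% of all symbols did, and gabrr1 was not among them. The same limit holds for members at 0 in the remaining cH libraries. The named beta subunits that rose in LH did not pass here, with adjusted p of 0.201 for gabrb2l, 0.294 for gabrb4 and 0.655 for gabrb1, and neither did gabra5 (adjusted p = 0.324).

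Genes that serve these receptors were taken from 3 lists. The scaffold list holds genes of gephyrin, its partners, neuroligins and receptor auxiliary proteins, and 30 of its 34 symbols were found. In LH 8 of 28 tested were higher and 1 was lower, against 7.14% and 6.24% of all symbols. In cH 2 of 29 were higher and 2 lower, near the 5.05% and 6.85% of all symbols. arhgef9b, a gene of collybistin, which in mammals brings gephyrin to the membrane, was at 26.4 ± 6.33 CPM in LH, against 7.02 ± 1.07 CPM for non-LH (log2 fold change 1.95 ± 0.27 SE, adjusted p = 0.000939). The neuroligin 3 gene nlgn3b, a postsynaptic adhesion gene, was at 150.1 ± 24.4 CPM and 77.3 ± 9.34 CPM (0.99 ± 0.15 SE, adjusted p = 0.00184). In cH the second neuroligin 3 gene, nlgn3a, was higher, at 721 ± 244 CPM against 205 ± 41.8 CPM in non-cH (1.83 ± 0.29 SE, adjusted p = 0.00709). There nlgn3b lay the other way, at 0, 27.0, 18.2 and 2.92 CPM in cH and 60.2 to 78.7 CPM in non-cH. These groups did not overlap, but the test was not passed (-2.55 ± 1.43 SE, adjusted p = 0.381). kctd12.2 belongs to the KCTD12 genes, whose mammalian product is an auxiliary subunit of the GABA-B receptor. It was at 215 ± 103 CPM in cH and 12.0 ± 4.13 CPM in non-cH (4.17 ± 0.46 SE, adjusted p = 0.00175), and it also rose in LH (1.31 ± 0.29 SE, adjusted p = 0.0143).

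The chloride transport list, with 10 of 12 symbols found, holds the transporters and channels that set the chloride gradient on which these receptors act. In LH 2 of 8 tested were higher and 1 was lower, against 7.14% and 6.24% of all symbols. slc12a5b, a gene of the exporter KCC2, was at 49.8 ± 12.3 CPM in LH and 27.7 ± 4.1 CPM in non-LH (0.88 ± 0.21 SE, adjusted p = 0.0192), and clcn2a, a ClC-2 channel gene, at 22.9 ± 5.52 CPM and 5.77 ± 1.94 CPM (2.02 ± 0.34 SE, adjusted p = 0.00369). In cH 0 of 8 passed in edgeR, 3 had an unadjusted p under 0.05 and DESeq2 called 3, where it called 21.1% of all symbols. There clcn2b was at 50.5 ± 25.7 CPM against 12.4 ± 5.69 CPM (adjusted p = 0.0901), and slc12a2, a gene of the importer NKCC1, at 28.1 ± 18.3 CPM against 109 ± 27.3 CPM (adjusted p = 0.0943).

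The supply list, with 18 of 19 symbols found, holds enzymes and transporters of GABA and glycine. In LH 1 of 16 tested was higher and 4 were lower, against 7.14% and 6.24% of all symbols. In cH 5 of 16 were higher and 1 was lower, against 5.05% and 6.85%. slc6a1a, a gene of the GABA transporter GAT1, was at 302 ± 19.8 CPM in LH and 187 ± 26.9 CPM in non-LH (0.73 ± 0.12 SE, adjusted p = 0.00276), and it was lower in cH (-0.78 ± 0.21 SE, adjusted p = 0.0457). The second GAT1 gene, slc6a1b, went the other way in both contrasts. It was lower in LH (-0.89 ± 0.21 SE, adjusted p = 0.0217) and higher in cH (2.45 ± 0.42 SE, adjusted p = 0.0099). Its level was 1544 to 3883 CPM in cH and 232 to 607 CPM in non-cH. shmt1, a gene of the enzyme that turns serine into glycine, was at 21.8 ± 6.29 CPM in LH and 47.5 ± 5.01 CPM in non-LH (-1.09 ± 0.22 SE, adjusted p = 0.00922). In cH the GABA transporter gene slc6a11b was at 1241 ± 288 CPM against 92.1 ± 66.6 CPM in non-cH (3.76 ± 0.54 SE, adjusted p = 0.00489), and abat, the gene of the enzyme that breaks down GABA, at 166 ± 44.9 CPM against 39.8 ± 12.3 CPM (2.07 ± 0.33 SE, adjusted p = 0.00693). The radial glia markers were higher in the same cH libraries, as given above. Their part in these values, and in the cH values of the scaffold list, was not tested. With all 16 libraries in 1 fit, the LH calls of the 3 lists fell to 1 in the scaffold, 0 in the chloride and 1 in the supply list. The call left in the scaffold list was lower and that in the supply list higher. None of the named rises of the scaffold and chloride lists in LH passed in that fit, where 1.67% of all symbols were called.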

How the data were processed

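The deposited table holds raw counts by gene for 16 libraries, as whole numbers that were not normalised. Per the labels' protocols, RNA of sorted cells was amplified by SMART-seq v2 with 16 cycles and tagmented with Nextera XT, which does not mark strand. FastQC, STAR and the build GRCz11 are named in the submitters' processing notes; the counting tool, how it handled multi-mapped reads and whether it used strand are not given in the sources used here, so copies of near-identical genes may share reads. Of 47038 rows, 9 without a gene name or count were left out, and 47029 were used. The deposited columns were matched to samples by name, and each replicate is 1 pool of brains.

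edgeR 4.0.16 (R 4.3.3) was run on the counts of 30565 symbols, with filterByExpr (minimum count 10, minimum total 15), TMM scaling and the robust quasi-likelihood F test, two-sided, with Benjamini-Hochberg adjustment over all symbols tested and a threshold of 0.05. Each comparison used the 8 libraries of its groups, because earlier results of these data showed a wider spread in cH, and the difference of contrasts used all 16. SE was taken as the absolute log2 fold change over the square root of F. CPM are of TMM-scaled libraries. Folds against a group at 0 are lower bounds from a floor of 3 counts over the group. Intervals cover counting error only, since reads were amplified by PCR without molecular identifiers; 75.2% of counts from 2 to 20 were even, so that, had each fragment been counted by both its reads, intervals would be too narrow and bounds too high.

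The members, the marker and pathway lists and the naming rule were chosen with earlier results of these data known. Values by library are given for the members with the smallest p in each class and contrast and a set of members chosen whatever their result, and those of some members are not reported here, though they enter the counts; from the 3 pathway lists (inhibitory synapse scaffold, chloride transport, and GABA and glycine supply) the 2 genes with the smallest p in each positive-negative contrast are named. Also named was slc6a1b, as a second gene of the same transporter as slc6a1a. Alternatives were the fit of all 16 libraries, a replicate block, rows as deposited, the size factors of DESeq2, DESeq2 1.42.0, no filter on low counts, each library left out, and cH replicates 1 and 2 set aside.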

Additional observations from a re-analysis of the deposited data

Results flagged for a closer look

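Among 88 groups of 4 libraries tested, 17 had 1 library far from the other 3, and chance flags about 1 in 20 groups. That rate does not apply to 6 of the 17, in which the other 3 libraries were at 0 and any count stands apart (gabra6b, gabrg3, glra4a and glrba in cH, and glrbb in non-LH and non-cH). It is no guide either where the other 3 were at or near 0. This was so for gabra5, gabrb4, gabrd and glra3 in cH and for gabra6a and gabrr1 in non-LH. In cH the library that stood apart was at 12.2 CPM for gabra5, 76.3 for gabrb2 and 41.4 for gabrg3, all in replicate 1. It was at 13.8 CPM for gabra6b, 56.3 for gabrb4, 6.73 for gabrd, 51.1 for gabrr2a, 0.712 for glra3 and 3.74 for glra4a, all in replicate 2, and at 0.0354 CPM for glrba in replicate 3. In non-LH the library that stood apart was at 24.6 CPM for gabrd (the lowest), 7.94 for glra1 (the lowest), 2.16 for gabrr1, 0.559 for gabra6a and 0.0486 for glrbb. In non-cH it was at 13.1 CPM for gabrr2a and 0.719 for glrbb.

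For 6 members described here the change in LH against non-LH differed from the change in cH against non-cH by the test of the difference in edgeR, each more positive in LH. On the log2 scale the fitted difference was 6.55 for gabrd, 6.79 for glra3 and 2.45 for gabbr2. For members at 0 or 1 count in cH the fitted values, which are no bounds, were 11.30 for gabrz, 9.52 for glrba and 13.50 for gabrr1. Their change in cH could only be negative, so little room was left for the other direction. gabrd and glra3, at or near 0 in most cH libraries, had little room for it as well.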

How the results depend on the processing

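Of the 12 member calls in LH against non-LH, 0 were made with all 16 libraries in 1 fit; 7 to 9 were made with 1 library left out, 7 without LH replicate 4 or non-LH replicate 4. For the 1 call in cH against non-cH there were 7 with all 16 libraries, 6 in DESeq2, 2 with rows as deposited, 11 with cH replicates 1 and 2 set aside, and 0 to 8 with 1 library left out (4 without cH replicate 1, 8 without cH replicate 2, 2 without non-cH replicate 1 and 0 without non-cH replicate 2, 3 or 4). For the 4 calls in LH against cH there were 8 with all 16 libraries, 8 in DESeq2, 14 with the pair set aside and 3 to 11 with 1 library left out (11 without cH replicate 2). Between the negative cells DESeq2 made 1 call and the other alternatives 0. The 7 differences became 16 with the pair set aside and 4 to 12 with 1 library left out (12 without cH replicate 2, and 4 without any 1 of LH replicates 2 to 4, non-LH replicates 1 to 3 or non-cH replicate 4). In a fit with the replicate number as a block, calls were 6 in LH against non-LH, 0 in cH against non-cH, 0 in LH against cH and 6 differences, where 10.5%, 2.8%, 3.26% and 9.58% of all symbols were called. With 1 library left out, the share of all symbols called was 9.69% to 11.8% in LH against non-LH, 4.31% to 14.6% in cH against non-cH, 9.82% to 17.2% in LH against cH and 8.97% to 16.1% for the differences. In LH against cH it was 22.8% with all 16 libraries and 24.7% in DESeq2. Whether the numbers pair the samples was not settled. Same-numbered libraries' deviations correlated at -0.009 to 0.032 in LH and non-LH, and those of different numbers at -0.023 to 0.025. In cH and non-cH the values were 0.011 to 0.040 and -0.045 to 0.028. There, each cH library correlated most with the non-cH library of its own number, though all values were small. The main fits did not treat equal numbers as pairs. Uncalled log2 fold changes of 5 members reversed. glra3 in LH was -0.0090 without LH replicate 4 and up to 0.86 with another library left out. In cH, gabrb1 was -1.24 to 0.88 with 1 library left out and 0.97 with the pair set aside. gabrg3 was -8.33 with the block, -10.68 (without cH replicate 1) to 1.52 with 1 library left out and -10.72 with the pair set aside. gabrr2a was -4.64 with the block, -2.60 (without cH replicate 2) to 1.06 with 1 left out and -2.03 with the pair set aside, and glra2 was -0.26 with the pair set aside. Of the values of single members under alternatives, 696 kept direction and side of the threshold, 111 lost and 31 gained a call, and 13 reversed; the cause was not tested. Counts at or near 0 limit what these values can show in cH. There 14 to 17 of 29 members were at 0, and 13478 to 16887 of 30565 symbols were detected. The cH libraries held 26.8 M to 49.4 M counts, and cH replicate 4 had the largest total of all 16.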
